A study of Mus musculus with 8 samples.

Results

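Transcripts that mark cells other than fibro-adipogenic progenitors (FAPs) were followed in 8 RNA-seq libraries of FAPs sorted from regenerating mouse muscle. The list held 37 genes of 55276 in each table, all of them listed, and was made up of markers of macrophages (8 genes), of leukocytes at large and T cells (2), endothelium (7), mural cells (2), muscle stem cells and myoblasts (4), myofibers (10), Schwann cells (2) and erythroid cells (2). Genes entered the list by name, as markers of a lineage. Together they made up 0.00670% to 0.0110% of all TPM (a transcript level corrected for length and scaled to the same total in every library) in the 4 libraries of 3 days post injury (dpi), and 0.0224% to 0.0339% in the 4 libraries of 7 dpi.

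The study asked how FAPs that lack the transcription factor Osr1 respond to muscle injury. Control mice were Osr1 flox/+ CAGG Cre+ and Osr1cKO mice were Osr1 flox/flox CAGG Cre+, with 2 libraries for each genotype and day. Both carried a tamoxifen-inducible Cre driven ubiquitously, so recombination was not limited to FAPs, and both received tamoxifen on the day when the tibialis anterior was freeze-injured and on the next 2 days, at an age of 4 to 6 months. Recombination put GFP in place of Osr1, and controls therefore kept 1 intact Osr1 copy in the cells that were collected. Per the study's text, FAPs were live cells negative for CD31, CD45 and TER-119 and positive for Sca1, of which the GFP-positive ones were sequenced. Cells were also stained for α7-integrin, which was used to sort muscle stem cells, and whether it served to exclude cells here is not given in the sources used here. A library held 1 mouse at 3 dpi and 4 pooled mice at 7 dpi, and the methods name different sequencers and read lengths while the labels name a single sequencer for all libraries, so that day, pooling and possibly the sequencing run cannot be told apart.

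The proteins stained for the sort mark the lineages followed here. CD31 is the product of Pecam1, an adhesion molecule of endothelial junctions. CD45 is the product of Ptprc, the phosphatase carried by all nucleated blood cells, TER-119 is a surface antigen of erythroid cells, and α7-integrin is the laminin receptor of muscle stem cells and myofibers. After injury, dying myofibers are cleared by macrophages while muscle stem cells divide as Pax7-positive or Myf5-positive cells, pass through Myod1 and Myog and fuse into new fibers, alongside regrowing capillaries and an expanded FAP pool. In bulk libraries such as these, fewer cells of a type cannot be told apart from less RNA per cell.

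Markers of the labelled cell type were present in every library, though not at a constant level. Pdgfra, the receptor that defines FAPs, ranged from 197 to 365 TPM, Ly6a, the gene of Sca1, from 1357 to 5407 TPM, and Col1a1, a fibrillar collagen gene, from 12404 to 28083 TPM. At 3 dpi Ly6a was lower in Osr1cKO, with 5407 and 4232 TPM in control against 3058 and 2020 TPM, a log2 difference of -0.95 (SE 0.34) that passed the unadjusted threshold of that day. Osr1, read as a whole gene, was at 105 and 91.0 TPM in the control libraries of 3 dpi and at 70.7 and 71.9 TPM in the Osr1cKO ones, and at 67.6 and 71.6 against 64.4 and 60.8 TPM at 7 dpi. Osr1 was thus lower in both Osr1cKO libraries at each day, with log2 differences of -0.45 (SE 0.13) at 3 dpi and -0.28 (SE 0.08, limma adjusted p = 0.320) at 7 dpi. The study reported efficient deletion of the floxed exon and missing expression of the next one in its RNA-seq data. It also reported less Osr1 mRNA by RT-qPCR in Osr1cKO FAPs at 3 dpi. Whole-gene values do not separate exons, so they do not measure that loss. The depth came to between 36516530 and 51096358 fragments per library. Libraries also differed in sex-linked and mitochondrial RNA: the 3 dpi libraries held 33.9 to 52.9 TPM of Xist, transcribed from the inactive X, with no Ddx3y, a Y-linked gene, whereas at 7 dpi Ddx3y reached 47.5 and 48.6 TPM in the control libraries, against 10.5 and 2.22 TPM in Osr1cKO, and Xist 12.4 and 0.0252 against 110 and 103 TPM. Mitochondrially encoded transcripts made up 0.550% to 1.04% of TPM at 3 dpi and 2.76% to 3.31% at 7 dpi. Their part in the differences between days and genotypes was not tested.

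Of the 37 members, 26 have a RefSeq promoter entry (build GRCm38.p6), and the 250 bases before the transcription start are shown for 5 members that stand for the lists described below. Acta1, Ckm and Mylpf belong to the myofiber, Hbb-bs to the erythroid and Lyz2 to the macrophage list. Capitals mark CAGCTG, an E-box of the kind bound by the MyoD family, in the myofiber genes, AGATAA and CACACCC, the GATA and CACCC boxes of globin genes, in Hbb-bs, and AGGAAGT, a core bound by ETS factors, in Lyz2 (there as its reverse complement); both strands were searched.
Acta1, chr8:123894776-123895025, minus strand: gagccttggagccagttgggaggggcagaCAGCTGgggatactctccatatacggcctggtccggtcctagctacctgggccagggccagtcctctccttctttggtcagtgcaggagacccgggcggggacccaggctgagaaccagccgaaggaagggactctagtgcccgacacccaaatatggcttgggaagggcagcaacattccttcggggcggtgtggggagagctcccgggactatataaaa
Ckm, chr7:19410844-19411093, plus strand: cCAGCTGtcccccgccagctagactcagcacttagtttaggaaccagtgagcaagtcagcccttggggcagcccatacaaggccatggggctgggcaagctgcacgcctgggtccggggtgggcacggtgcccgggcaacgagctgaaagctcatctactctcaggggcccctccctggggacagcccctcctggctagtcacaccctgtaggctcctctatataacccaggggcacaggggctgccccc
Mylpf, chr7:127211358-127211607, plus strand: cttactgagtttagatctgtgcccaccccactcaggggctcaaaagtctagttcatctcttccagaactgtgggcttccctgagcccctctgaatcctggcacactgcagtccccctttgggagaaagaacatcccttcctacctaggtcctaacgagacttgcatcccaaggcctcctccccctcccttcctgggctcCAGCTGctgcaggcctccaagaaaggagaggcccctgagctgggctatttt
Hbb-bs, chr7:103827929-103828178, minus strand: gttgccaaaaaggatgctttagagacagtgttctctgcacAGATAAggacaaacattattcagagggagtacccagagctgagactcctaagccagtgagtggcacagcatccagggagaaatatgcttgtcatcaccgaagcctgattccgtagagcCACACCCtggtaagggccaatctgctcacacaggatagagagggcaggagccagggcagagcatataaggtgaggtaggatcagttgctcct
Lyz2, chr10:117282273-117282522, minus strand: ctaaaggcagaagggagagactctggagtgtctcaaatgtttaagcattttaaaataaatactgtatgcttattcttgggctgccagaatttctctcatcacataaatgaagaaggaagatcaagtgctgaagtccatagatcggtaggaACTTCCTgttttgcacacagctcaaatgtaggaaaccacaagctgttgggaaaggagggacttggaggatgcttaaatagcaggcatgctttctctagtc
The E-box begins 221 bases before the start in Acta1, 249 in Ckm and 51 in Mylpf. Of the 10 muscle stem cell and myofiber genes with an entry, 5 (Acta1, Ckm, Mb, Myh4 and Mylpf) hold CAGCTG in this window, while 13% of all 32851 promoters do. AGATAA occurs in 9.99% and CACACCC in 6.93% of all promoters, and of the erythroid pair Hbb-bs holds both and Hba-a1 neither. AGGAAGT is in 7.69% of all promoters and in 6 of the 7 macrophage and leukocyte genes with an entry, namely C1qb, C1qc, Cd3e, Lyz2, Mrc1 and Ptprc, but not Cd68. Members of other lineages held these letters too: CAGCTG was found in Cd68, AGGAAGT in Pax7 and S100b, AGATAA in Myog, Ptprc and Rgs5, and CACACCC in C1qc, Ckm (unmarked above) and Tie1. These are matches of letters and were not tested as binding sites.

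The order of levels within the FAP libraries did not follow the lineages and changed with the day. The highest mean over all 8 libraries was that of Tek, with 32.4 TPM, followed by the mural markers Cspg4 (20.96 TPM) and Rgs5 (19.7 TPM) and by Lyz2 (15.2 TPM). At 3 dpi Cspg4 exceeded Tek in 3 of 4 libraries, and Rgs5 was at 0.504 to 1.01 TPM. At the other end, the mean was 0.0988 TPM for Ptprc and 0.0111 TPM for Sox10. At 3 dpi, between 21 and 25 of the 37 members lay under 1 TPM in a library and 4 to 8 were at 0. At 7 dpi, 10 to 12 were under 1 TPM and 0 to 2 at 0. All 37 values in each library are laid out in the heat map.

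**Figure D1:**
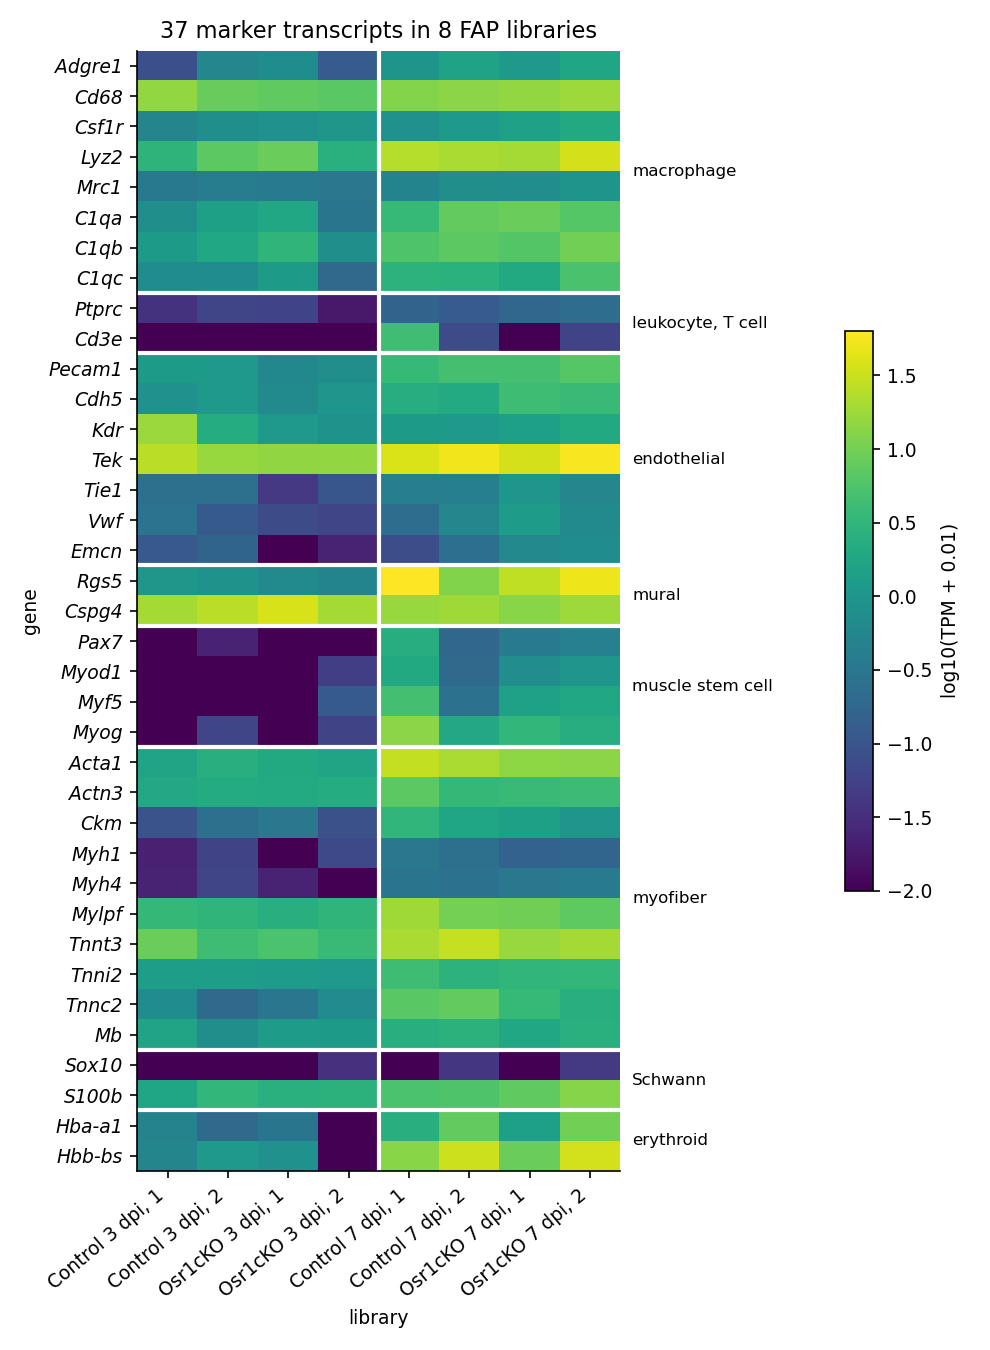
TPM of the 37 members (rows, by lineage) in the 8 libraries (columns, replicate number after the comma), coloured by log10(TPM + 0.01). Most rows brighten from the 4 columns of 3 dpi to the 4 of 7 dpi, muscle stem cell genes are darkest at 3 dpi, and Tek, Cspg4 and Cd68 are bright throughout.

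Among macrophage genes, Cd68 and Lyz2 were above the surface receptors Adgre1, Csf1r and Mrc1 in every library. Cd68, a lysosomal glycoprotein, measured 15.4 and 8.38 TPM in the control libraries of 3 dpi, against 7.42 and 6.87 TPM in Osr1cKO, and 12.5 and 13.7 against 15.6 and 17.4 TPM at 7 dpi. Lyz2, lysozyme M, gave 2.93, 6.93, 8.47 and 2.55 TPM at 3 dpi in the same order of libraries, against 23.9, 21.1, 19.5 and 36.1 TPM at 7 dpi. Every library of 7 dpi was therefore above every library of 3 dpi for Lyz2, while Cd68 overlapped. Adgre1, the gene of F4/80, lay between 0.0744 and 0.708 TPM at 3 dpi and between 0.917 and 1.80 TPM at 7 dpi. Csf1r, the receptor for macrophage colony-stimulating factor, stayed between 0.528 and 2.001 TPM and Mrc1, the mannose receptor CD206, between 0.312 and 0.915 TPM.

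The 3 chains of C1q, the recognition molecule of complement, rose by day in both genotypes. C1qa rose from 0.772 and 1.44 to 3.57 and 7.84 TPM among control libraries, and from 1.82 and 0.294 to 8.80 and 6.40 TPM in Osr1cKO. C1qb and C1qc ranged from 0.772 to 3.05 and from 0.198 to 1.19 TPM at 3 dpi and from 5.63 to 9.76 and from 2.05 to 5.07 TPM at 7 dpi. All 3 lie side by side on chromosome 4, and the ratio of C1qb to C1qa stayed between 0.695 and 2.63 in the 8 libraries. Replicate 2 of Osr1cKO at 3 dpi was the lowest library for all 3 chains and for Lyz2.

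Ptprc, which the gate excludes, was close to absent. Its 18313 bases of exon collected 6, 12, 11 and 2 fragments in the libraries of 3 dpi and 30, 24, 30 and 38 in those of 7 dpi, that is 0.00834 to 0.0515 TPM and 0.119 to 0.216 TPM. Ly6a stood 7968 to 242210 times above Ptprc in TPM. Cd3e, a T cell receptor component on chromosome 9 at 44998740 to 45009627, had 0 fragments in all 4 libraries of 3 dpi and 3, 0 and 2 fragments in 3 of the libraries of 7 dpi. Replicate 1 of control at 7 dpi, in contrast, held 188 fragments of Cd3e (4.27 TPM). Cd3d and Cd3g, chosen after their values were seen as the genes of its partner chains, had 0 and 2 fragments in that library. Cd3e shares exon bases with Gm48719 on the opposite strand, and whether the fragments came from that gene was not tested. No test by day or genotype was run on Cd3e, since a single library carried nearly all its fragments.

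Endothelial markers fell into a group at low levels and Tek apart from them. Pecam1 measured 1.19 and 1.098 TPM in the control libraries of 3 dpi, against 0.584 and 0.736 TPM in Osr1cKO, and 3.56, 4.73, 4.77 and 6.25 TPM at 7 dpi in the same order. Cdh5, the cadherin of endothelial junctions, gave 0.821, 1.12, 0.621 and 0.981 TPM and then 2.32, 2.13, 4.16 and 3.74 TPM. No library of 7 dpi overlapped with 3 dpi for either gene. Tie1, an endothelial receptor kinase, Vwf, the von Willebrand factor, and Emcn, a sialomucin of venous and capillary endothelium, stayed at or under 1.27 TPM in every library, and Emcn had 0 fragments in replicate 1 of Osr1cKO at 3 dpi.

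Tek, the angiopoietin receptor on chromosome 4 at 94739289 to 94874976, measured 25.4, 16.5, 14.9 and 15.4 TPM at 3 dpi and 38.9, 53.0, 36.3 and 58.4 TPM at 7 dpi. Its ratio to Pecam1 was 15.1 to 25.5 at 3 dpi and 7.59 to 11.2 at 7 dpi, so Tek did not keep a fixed proportion to the junction genes. Kdr, the main receptor of vascular endothelial growth factor A, was the marker with the most uneven libraries at 3 dpi. Replicate 1 of control held 16.8 TPM (1894 fragments) and the other 3 libraries 2.25, 1.12 and 0.880 TPM, while the 4 libraries of 7 dpi lay between 1.14 and 2.05 TPM. In the library with 16.8 TPM of Kdr, Cdh5 was at 0.821 TPM, inside the range of the other 3 dpi libraries, and Pecam1 at 1.19 TPM, next to the 1.098 TPM of the other control library. The same library also held the most Mpeg1 (140 TPM, against 7.86 to 46.5 TPM in the others of 3 dpi) and the least Col1a1 (12404 TPM).

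The mural pair went separate ways. Rgs5, a regulator of G protein signalling typical of pericytes on chromosome 1 at 169655501 to 169695813, measured 1.01, 0.865, 0.626 and 0.504 TPM at 3 dpi and 63.6, 12.3, 27.6 and 50.8 TPM at 7 dpi. The 2 control libraries of 7 dpi differed more from each other than the genotypes did. Cspg4, the NG2 proteoglycan, measured 19.4, 25.5, 37.6 and 19.5 TPM at 3 dpi and 16.4, 18.2, 13.3 and 17.7 TPM at 7 dpi, so that the ratio of Cspg4 to Rgs5 dropped from between 19.3 and 60.1 to between 0.258 and 1.48.

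Muscle stem cell genes were almost without reads at 3 dpi. Pax7, which marks the stem cell, Myf5 and Myod1, which commit it, and Myog, which starts differentiation, together had 0 fragments in replicate 1 of both genotypes, 2 in replicate 2 of control and 5 in replicate 2 of Osr1cKO. At 7 dpi their sum came to 518 and 53 fragments in control and to 111 and 113 in Osr1cKO. Myog, on chromosome 1 at 134289989 to 134292548, had the highest TPM of the 4, with 14.1 and 1.94 in control against 3.34 and 2.37 in Osr1cKO. Pax7 gave 2.30 and 0.170 TPM against 0.355 and 0.444 TPM, and Myf5 4.68 and 0.261 TPM against 1.497 and 1.85 TPM. For all 4 genes the Osr1cKO libraries therefore lay between the 2 control libraries, with replicate 1 of control 2.15 (Myod1) to 5.17 (Pax7) times above the next library of 7 dpi.

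Myofiber transcripts were detected at 3 dpi. Acta1, Actn3, Mylpf, Tnnt3, Tnni2 and Mb had at least 10 fragments in 2 or more libraries of 3 dpi. For these 6 genes each library of 7 dpi lay above each library of 3 dpi of the same genotype. Of all genes tested, 36.5% showed that order in control and 37.6% in Osr1cKO. Ckm, Myh1, Myh4 and Tnnc2 did not reach that level at 3 dpi and are not counted. Acta1, skeletal α-actin on chromosome 8 at 123891769 to 123894751, measured 1.67, 2.41, 2.01 and 1.64 TPM at 3 dpi, then 28.7 and 20.6 TPM in control against 14.4 and 14.1 TPM in Osr1cKO. Tnnt3, fast troponin T, was the most abundant on average, with 3.62 to 9.03 TPM at 3 dpi. At 7 dpi it measured 20.7 and 29.0 TPM in control against 16.5 and 19.9 TPM in Osr1cKO. Mylpf, the fast regulatory light chain, had 2.53 to 3.40 TPM and then 18.5, 10.2, 9.59 and 7.35 TPM. Tnnc2, fast troponin C, measured 0.703, 0.197, 0.296 and 0.668 TPM and then 6.84 and 7.702 TPM in control against 3.51 and 2.47 TPM in Osr1cKO. Acta1, Tnnt3, Mylpf and Tnnc2 thus shared an order at 7 dpi, both control libraries above both Osr1cKO libraries.

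The other myofiber members were lower. Tnni2 (fast troponin I), Actn3 (α-actinin of fast fibers), Ckm (muscle creatine kinase) and Mb (myoglobin) reached at most 4.21, 6.94, 3.15 and 2.73 TPM at 7 dpi. The fast myosin heavy chains Myh1 and Myh4, closely related genes that can share reads, stayed at or under 0.346 TPM in every library. Ratios within the list changed with the day: Mylpf stood at 1.26 to 2.03 times Acta1 at 3 dpi and at 0.493 to 0.669 times Acta1 at 7 dpi. Tnnc2, Ckm, Myh1 and Mb share exon bases with genes on the opposite strand, among them Ube2c for Tnnc2 and Apol6 for Mb. The library kit kept strand, but the strand setting of the counting was not given in the sources used here. These 4 values are therefore uncertain, like those of Csf1r (which overlaps Hmgxb3) and Cd3e (which overlaps Gm48719).

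The Schwann pair gave opposite readings. S100b, a calcium-binding protein of Schwann cells that other cells also make, measured 1.73, 3.28, 2.56 and 2.78 TPM at 3 dpi and 5.31, 5.68, 7.57 and 12.9 TPM at 7 dpi. Sox10, the transcription factor that defines the lineage, had 0 or 1 fragment in each of the 8 libraries. The floor of 3 fragments was not reached in any of them.

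Erythroid transcripts differed widely between replicates of 7 dpi. Hbb-bs, adult β-globin, measured 0.523, 1.13, 0.823 and 0 TPM at 3 dpi and 13.5, 33.0, 8.80 and 34.6 TPM at 7 dpi. Hba-a1, adult α-globin, followed with 0.494, 0.194, 0.292 and 0 TPM and then 2.40, 7.81, 1.41 and 9.998 TPM. Replicate 2 of both genotypes was the higher one at 7 dpi for both chains, and the ratio of Hbb-bs to Hba-a1 lay between 3.46 and 6.25 in these 4 libraries. Their neighbours Hba-a2 and Hbb-bt are near-identical copies, so the split of reads between the copies is uncertain. Alas2, which starts heme synthesis in erythroid cells, stayed at or under 0.823 TPM.

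**Figure D2:**
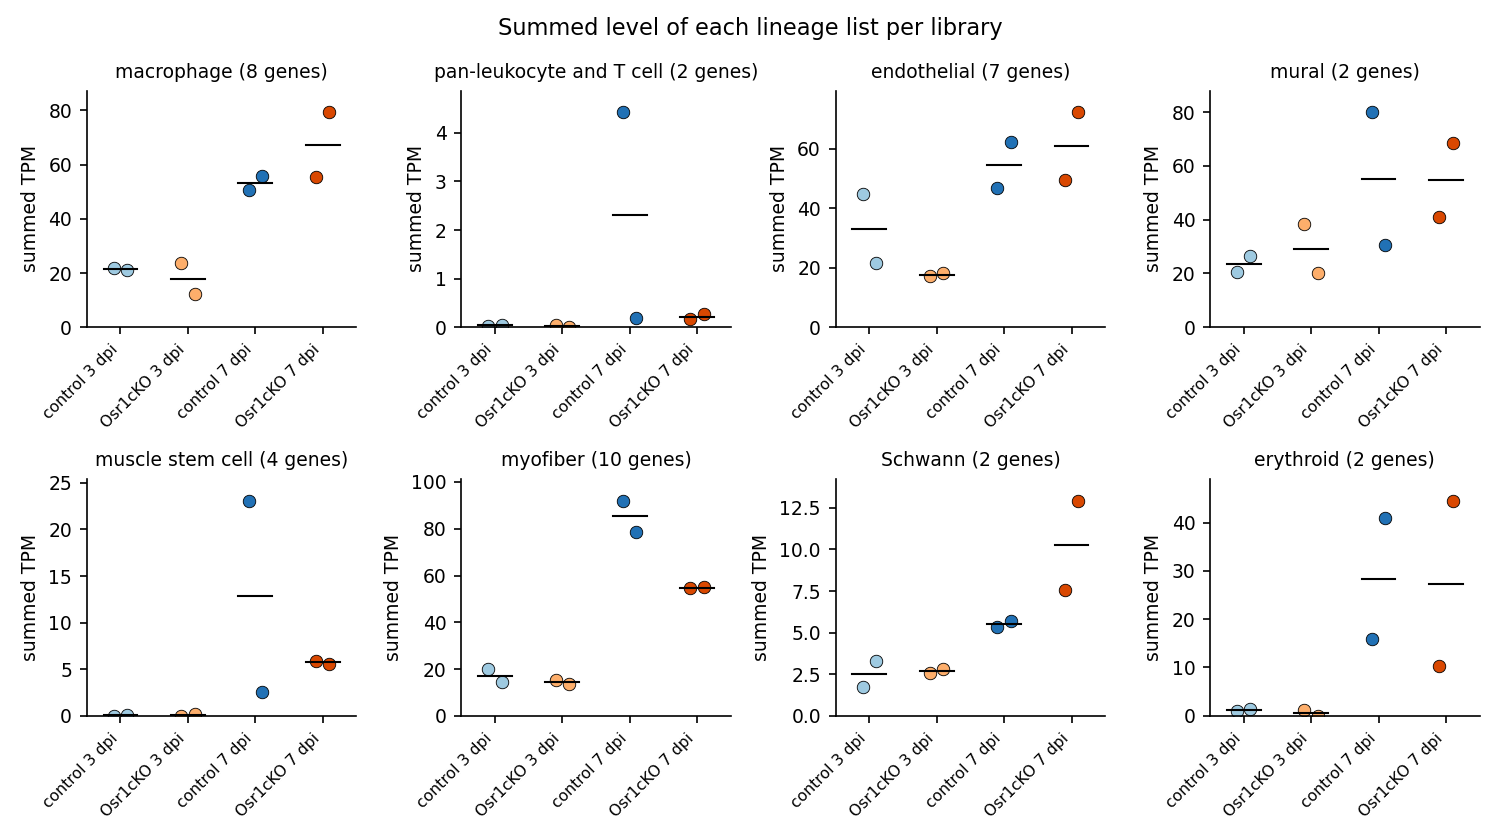
Summed TPM of the members of each lineage in each library (points; left to right within a group, replicates 1 and 2) with the mean of the 2 libraries (line), on linear axes from 0. All lists except mural keep the days apart, control replicate 1 of 7 dpi stands alone for muscle stem cell genes (23.1 TPM against 2.57 to 5.92), and the myofiber sums are 92.1 and 78.8 TPM in control against 54.5 and 55.1 TPM in Osr1cKO.

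Summed over each list, macrophage transcripts came to 12.1 to 23.8 TPM at 3 dpi and 50.6 to 79.4 TPM at 7 dpi, and endothelial ones to 17.3 to 44.9 and 46.7 to 72.4 TPM. The endothelial sum was mostly Tek, and the highest at 3 dpi included 16.8 TPM of Kdr. Mural sums overlapped between days, at 20.0 to 38.3 and 30.4 to 80.0 TPM. Myofiber sums were 13.7 to 19.8 and 54.5 to 92.1 TPM, and erythroid sums 0 to 1.32 and 10.2 to 44.6 TPM. Over the same days, 10 FAP markers summed to 31313 to 49344 TPM and then to 56817 to 63866 TPM, a sum made up mostly of collagens. Pdgfra and Ly6a went the other way: Pdgfra fell by 0.68 (SE 0.14) in control and 0.47 (SE 0.14) in Osr1cKO on the log2 scale, and Ly6a fell by 1.45 (SE 0.27) in control and stood at -0.72 (SE 0.27, limma adjusted p = 0.0738) in Osr1cKO. The part of these shifts in the differences between days was not tested.

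For the comparison of days, each gene was tested by limma on log2(scaled TPM + 1) over all 8 libraries, as 7 dpi minus 3 dpi within a genotype, where scaling aligned the libraries by a trimmed mean. Fold changes on this scale understate the change of low genes. A call needed a Benjamini-Hochberg adjusted p under 0.05 with more than a 1.2-fold difference, which 45.4% of the 17371 genes tested passed in control (21.3% higher, 24.1% lower) and 40.1% in Osr1cKO (18.2% higher, 21.9% lower). A gene was tested if at least 2 libraries had 10 or more fragments, which left out Cd3e and Sox10. Of the other 35 members, 11 (Emcn, Pax7, Myod1, Myf5, Myog, Ckm, Myh1, Myh4, Tnnc2, Hba-a1 and Hbb-bs) passed this filter only through the 7 dpi libraries. For these the filter itself favoured a rise by day. Of the 24 that also passed it within 3 dpi, 15 rose and 0 fell in control, and 18 rose and 0 fell in Osr1cKO. The values of the other 11 are given without counting them.

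In control, C1qa, C1qb, C1qc and Lyz2 rose among the 8 macrophage genes, by 1.67, 1.62, 1.204 and 2.14 log2 units (SE 0.45, 0.40, 0.36 and 0.53). Pecam1, Cdh5 and Tek rose by 1.31 (SE 0.18), 0.76 (SE 0.18) and 1.19 (SE 0.25), and Rgs5 by 3.99 (SE 0.66). All 6 myofiber genes among the 24 rose, from Mb at 0.79 (SE 0.22) to Acta1 at 3.14 (SE 0.22, limma adjusted p = 0.000220). S100b rose by 0.99 (SE 0.29). Among the 11, Tnnc2 differed by 2.59 (SE 0.24), Ckm by 1.58 (SE 0.24), and Hbb-bs and Hba-a1 by 3.69 and 2.09 (SE 0.65 and 0.69). Myog differed by 2.75 (SE 0.66), a value that depends on the pseudocount because its 3 dpi libraries had 0 or 1 fragment. Whether the other muscle stem cell genes passed also depended on the fit, and they are not counted since all belong to the 11. Kdr, at -1.77 (SE 0.65, limma adjusted p = 0.0615), and Cspg4, at -0.27 (SE 0.30), were the members with a negative difference, and neither passed the test.

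In Osr1cKO, 7 of 8 macrophage genes rose, which added Cd68 at 1.04 (SE 0.23), Csf1r at 0.47 (SE 0.16) and Mrc1 at 0.42 (SE 0.12) to those called in control. Of the 6 endothelial genes among the 24, 5 rose, from Tie1 at 0.72 (SE 0.14) to Pecam1 at 1.92 (SE 0.18, limma adjusted p = 0.000714), with Kdr at 0.40 (SE 0.65) not called. Rgs5 rose by 4.57 (SE 0.66) and Cspg4 stood at -0.85 (SE 0.30, limma adjusted p = 0.0618). Of the 6 myofiber genes among the 24, 4 rose, and Actn3 and Mb stood at 0.56 (SE 0.28) and 0.49 (SE 0.22). Myog, of the 11, had 1.86 (SE 0.66, limma adjusted p = 0.0579), and whether muscle stem cell genes passed again depended on the fit. S100b rose by 1.52 (SE 0.29), and Emcn and Hbb-bs of the 11 differed by 0.69 (SE 0.11) and 3.73 (SE 0.65).

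**Figure D3:**
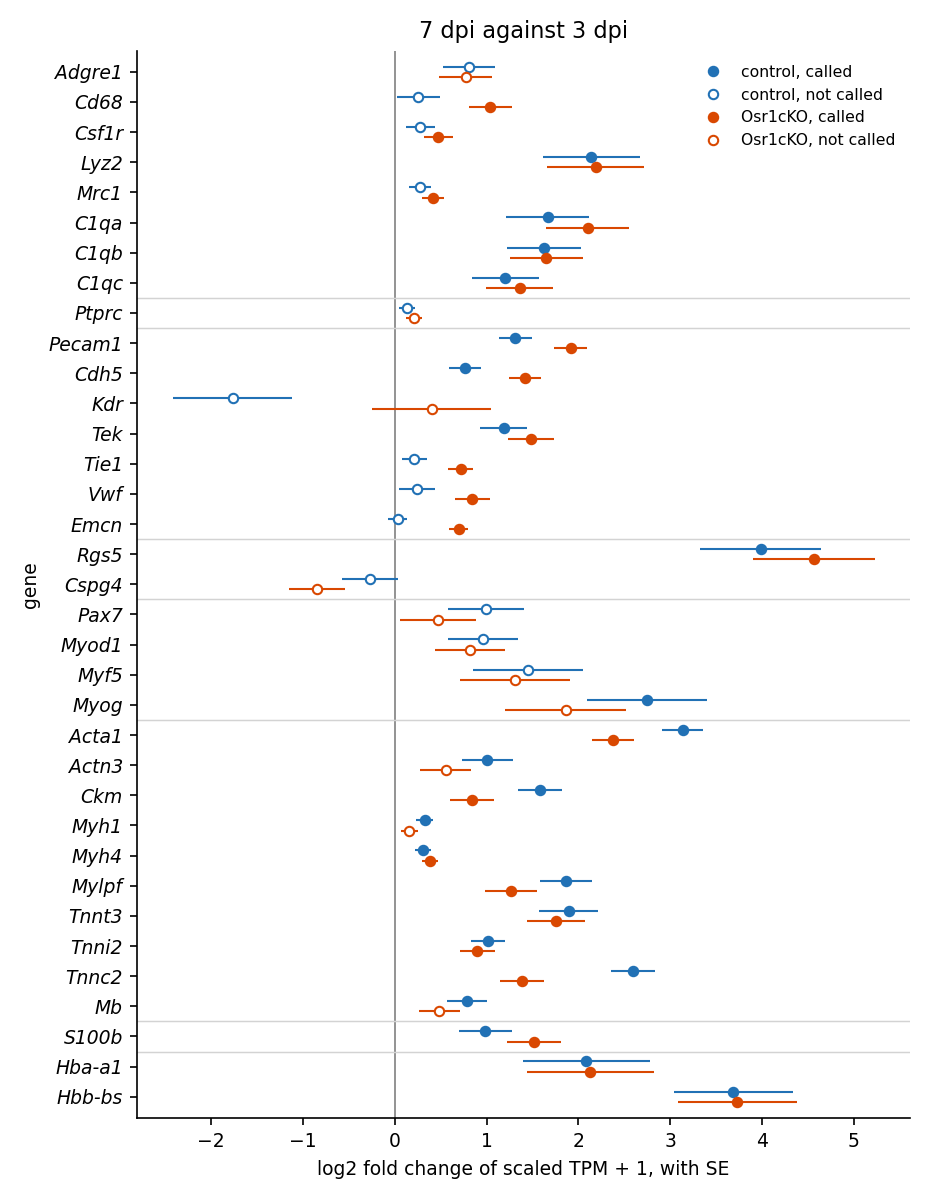
Log2 fold change from 3 to 7 dpi of the 35 members tested (points) with its standard error (bars), in control (blue) and Osr1cKO (orange); filled points are called. Points lie to the right of 0 for all but Kdr in control and Cspg4 in both genotypes, and 13 of the 24 genes that passed the filter at 3 dpi are filled in both.

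Of the 24, 13 were called in both day comparisons, 2 in control alone (Actn3 and Mb), 5 in Osr1cKO alone (Cd68, Csf1r, Mrc1, Tie1 and Vwf) and 4 in neither (Adgre1, Cspg4, Kdr and Ptprc). The difference between the 2 day effects was tested directly as the interaction of genotype and day, and limma called 0 members and 0 (0%) of all 17371 genes at an adjusted p under 0.05. At an unadjusted p under 0.05 the interaction gave 6 members, Cd68, Cdh5, Tie1 and Emcn as higher and Acta1 and Tnnc2 as lower, beside 6.78% of all genes. Calls made in 1 genotype alone are therefore not shown to differ between genotypes.

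The day calls among the 24 depended on single libraries. Fits without 1 library leave a library alone in its group, so their calls are not counted. The macrophage calls in control did not hold in every such fit. In control the median difference of the 24 was 0.93 to 1.07 log2 units in these fits, against 0.9975 with all libraries. In Osr1cKO it was 0.94 to 1.135, against 1.15, and Cspg4 stood at -1.32 without replicate 2 of 3 dpi. The direction of the 6 myofiber genes among the 24 was upward in each of these fits.

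At 3 dpi no member was called between genotypes at the study's threshold (unadjusted p under 0.05 with more than a 1.2-fold difference), beside 6.27% of 15699 genes. The fit tested 24 members. Macrophage genes were split, 4 higher and 4 lower in Osr1cKO, from Cd68 at -0.61 (SE 0.31) to Csf1r at 0.22 (SE 0.16). All 6 endothelial genes tested were lower in Osr1cKO, with a median of -0.30 against 0.01 for all tested genes, and for 5 of them (Pecam1, Kdr, Tek, Tie1 and Vwf) both Osr1cKO libraries were under both control libraries, an arrangement that 17.9% of all genes showed. Pecam1 differed by -0.37 (SE 0.15) and Kdr by -1.93 (SE 0.79), which limma gave adjusted p-values of 0.784 and 0.785. Without the control library that stood apart for Kdr, the Kdr difference was -0.71. With that library as the only control, Kdr stood at -3.16. In that fit 13 of the 21 members tested were lower and 8 higher in Osr1cKO, with a median of -0.06.

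At 7 dpi the study's threshold was an adjusted p under 0.1 with more than a 1.2-fold difference, which 0 of the 35 members tested and 0.0664% of 16578 genes passed by limma. At an unadjusted p under 0.05, 9 members passed beside 12.5% of all genes: Csf1r, Cdh5, Emcn and S100b as higher in Osr1cKO and Acta1, Ckm, Mylpf, Tnnt3 and Tnnc2 as lower. Deposited TPM placed the typical gene 0.13 log2 units higher in Osr1cKO than in control at this day, and differences are given after that shift was removed.

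Most myofiber genes had lower values in Osr1cKO at 7 dpi. Of 10 genes, 9 had a negative difference, with a median of -0.47, and for 7 of them no Osr1cKO library reached a control library, which 22.6% of all genes showed. Tnnc2 differed by -1.17 (SE 0.19, limma adjusted p = 0.222), Acta1 by -0.86 (SE 0.17, limma adjusted p = 0.246) and Mylpf by -0.77 (SE 0.30, limma adjusted p = 0.386). Myh4, at 0.04 (SE 0.11), was the exception. Ube2c, which overlaps Tnnc2 on the opposite strand, measured 7.28 and 3.90 TPM in control against 8.92 and 8.77 TPM in Osr1cKO, so that it did not share the order of Tnnc2. The count of lower genes was also 9 with deposited TPM, with a pseudocount of 0.1 and with limma-voom on fragments, and it was 7 without replicate 1 of control. In that fit Tnnc2 and Tnnt3 stood at -1.24 and -0.77, and Rgs5 at 1.42. Without replicate 2 of control, Acta1 and Mylpf stood at -1.099 and -1.18.

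The direction of muscle stem cell genes turned on a single library. With all 4 libraries of 7 dpi, Pax7, Myod1, Myf5 and Myog differed by -0.54, -0.12, -0.08 and -0.90 (SE 0.48, 0.44, 0.69 and 0.75), none of which passed, and Myod1 and Myf5 were higher in Osr1cKO with a pseudocount of 0.1 or with limma-voom. Without replicate 1 of control all 4 were higher in Osr1cKO, with a median of 0.44 and Myf5 at 1.04. Without replicate 2 of control all 4 were lower, with a median of -1.26 and Myog at -2.10. In such fits the lone control library is assumed to vary as the other groups do.

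**Figure D4:**
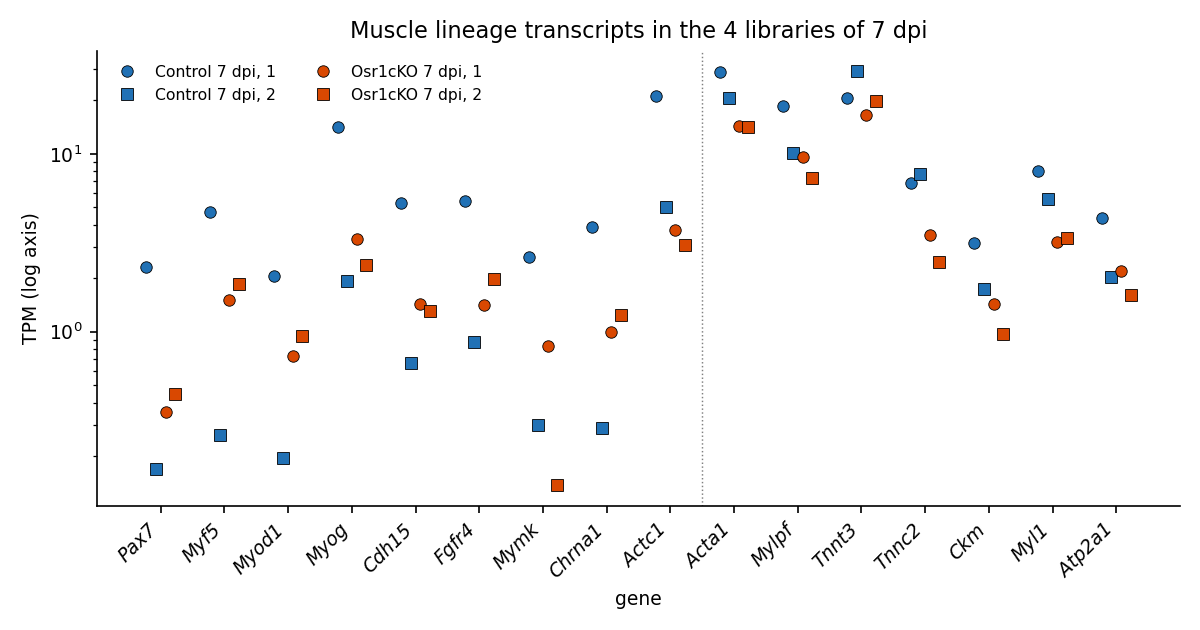
TPM on a log axis of 16 muscle lineage transcripts in the 4 libraries of 7 dpi (blue, control; orange, Osr1cKO; circles, replicate 1; squares, replicate 2), with progenitor and embryonic genes left of the dotted line and fiber genes right of it. Control replicate 1 is at the top for the genes on the left, where control replicate 2 is lowest for several. Both control libraries are above both Osr1cKO libraries for Acta1, Mylpf, Tnnt3, Tnnc2, Ckm and Myl1. The genes plotted are a selection. Over the full companion lists, control replicate 1 was highest for 8 of 11 stem cell and 6 of 9 embryonic genes. It was not highest for Myf6, Sdc4, Vcam1, Myh8, Myl4 and Ncam1.

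The remaining lists were not called at 7 dpi either. The 8 macrophage genes were each higher in Osr1cKO, with a median of 0.12 that fell to -0.04 without replicate 2 of Osr1cKO, and the largest was Csf1r at 0.42 (SE 0.16). Of the endothelial genes 6 of 7 were higher, with a median of 0.27, and 5 of them without overlap between genotypes (22.9% of all genes), among them Cdh5 at 0.52 (SE 0.15) and Emcn at 0.49 (SE 0.13), and Tek was at -0.11 (SE 0.24). S100b stood at 0.63 (SE 0.23). Rgs5, Hbb-bs and Hba-a1 differed by 0.27, -0.38 and -0.19 with standard errors of 0.74, 0.66 and 0.78, so that their replicates spread more widely than the genotypes.

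**Figure D5:**
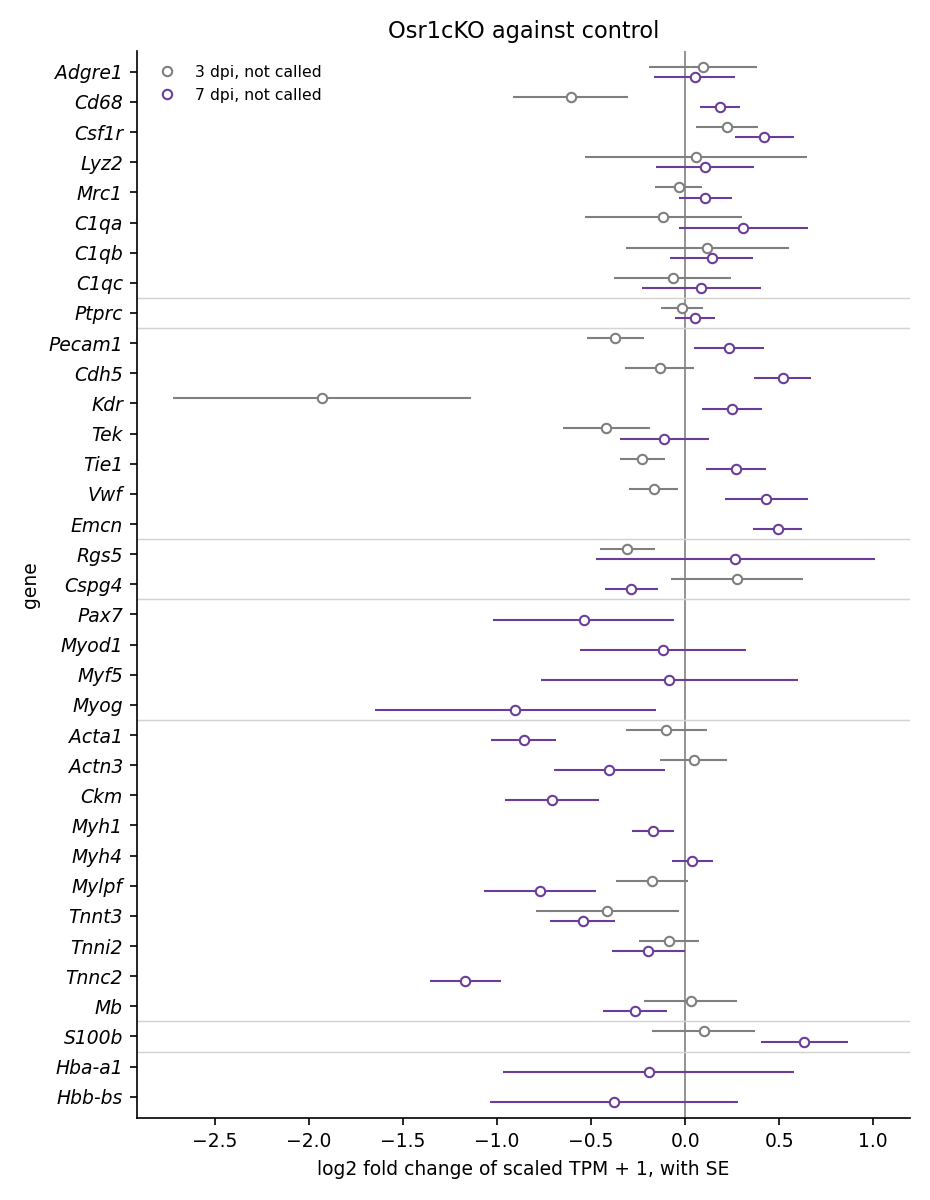
Log2 fold change of Osr1cKO against control (points) with its standard error (bars) at 3 dpi (grey, 24 members) and 7 dpi (purple, 35 members); no point is filled since no member was called. At 7 dpi the myofiber genes lie left of 0 except Myh4, while the endothelial genes tested at both days lie left of 0 at 3 dpi and, except Tek, right of 0 at 7 dpi.

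Further markers of the same lineages, 109 genes in 10 companion lists, were read in the same way. Of 84 tested by day, 28 were called higher and 5 lower in control, and 26 higher and 3 lower in Osr1cKO. Of the 84, however, 21 passed the filter only through the 7 dpi libraries, which favoured a rise. They include Cx3cr1 and Aif1 and can include other genes named below as rising by day. Of the 63 that passed it at 3 dpi, 19 rose and 5 fell in control and 17 rose and 3 fell in Osr1cKO, beside the shares of all genes given above for the members (21.3% and 24.1% in control, 18.2% and 21.9% in Osr1cKO). Between genotypes 2 were called higher and 3 lower of 63 tested at 3 dpi, namely Ncam1 and Ngfr as higher and Mpeg1, Ramp2 and Tnnc1 as lower, and 0 of 82 at 7 dpi. Over all genes the 3 dpi test gave 2.38% higher and 3.89% lower.

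Several genes known as markers of a vessel or immune cell were abundant in these libraries. Eng, the endoglin receptor, measured 224 to 374 TPM at 3 dpi and 125 to 135 TPM at 7 dpi, Ramp2, a co-receptor for adrenomedullin, 30.5 to 61.4 TPM, and Plvap, a protein of endothelial diaphragms, 1.495 to 9.58 TPM. Endothelial companions with a rise by day in both genotypes were Cldn5, Esam, Erg and Ptprb, Erg by 2.02 (SE 0.18) in control and 1.98 (SE 0.18) in Osr1cKO, whereas Eng fell by 1.34 (SE 0.17) and 1.09 (SE 0.17). Of the mural companions, Acta2 (smooth muscle actin), Pdgfrb and Ndufa4l2 had means of 408, 275 and 108 TPM. Myh11, Kcnj8, Abcc9 and Mcam rose by day in both genotypes, Mcam by 1.48 (SE 0.34) and 1.85 (SE 0.34), and Pdgfrb fell by 0.48 (SE 0.15) and 0.73 (SE 0.15).

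Among 18 further monocyte and macrophage genes, Gpnmb and Mpeg1 had means of 31.2 and 30.9 TPM. Gpnmb was at 94.4 TPM in replicate 1 of control at 3 dpi, against 9.54 to 16.4 TPM in the others of that day. At 7 dpi it lay between 17.8 and 43.6 TPM. Cx3cr1, the fractalkine receptor, and Aif1 passed the filter only through the 7 dpi libraries, so their calls by day are not counted as a rise. Cx3cr1 had 3 to 5 fragments per library at 3 dpi and 28 to 31 at 7 dpi, and Aif1 0 to 6 and 13 to 21. Mpeg1, perforin-2, fell by 3.33 (SE 0.62) in control, where replicate 1 of 3 dpi held 140 TPM. Neutrophil genes were led by S100a9, Camp and S100a8, with means of 3.76, 1.67 and 1.38 TPM, and S100a8 rose in both genotypes. Of 11 further lymphoid genes, Cd79a, Cd4 and Trac had means of 7.68, 0.810 and 0.759 TPM, and Cd4 rose by day in both genotypes.

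Further muscle genes were read for the same libraries. Sdc4, Vcam1 and Msc led the stem cell companions, with means of 251, 97.1 and 15.02 TPM, and Itga7, the gene of α7-integrin itself, rose from 4.42 to 7.34 TPM at 3 dpi to 10.4 to 13.4 TPM at 7 dpi, by 0.99 (SE 0.24) in control and 1.04 (SE 0.24) in Osr1cKO. Actc1, the actin of embryonic and regenerating fibers, lay at 0 to 0.0977 TPM at 3 dpi and at 20.99, 5.04, 3.73 and 3.09 TPM at 7 dpi. Ncam1 and Myl4, the other leading genes of that list, had means of 29.95 and 3.47 TPM. Among mature fiber companions, Eno3, Myl1 and Tnnt1 had means of 10.1, 2.55 and 2.30 TPM, and 12 of 13 tested were lower in Osr1cKO at 7 dpi, none of them called, with Myl1 at 8.01 and 5.55 TPM against 3.21 and 3.36 TPM. Replicate 1 of control exceeded the next library of 7 dpi more than 2 times for 4 of 11 stem cell companions, 4 of 9 embryonic and 4 of 16 mature ones.

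Of the Schwann companions, Prx, Ngfr and Cdh19 had means of 4.11, 3.84 and 2.09 TPM. Ngfr, a neurotrophin receptor, was higher in Osr1cKO at 3 dpi by 1.13 (SE 0.43), with 0.350 and 2.05 TPM in control against 4.04 and 2.95 TPM in Osr1cKO. Hbb-bt, Hba-a2 and Alas2 had means of 1.21, 1.19 and 0.204 TPM, and both globins shared with Hbb-bs the higher values in replicate 2 of both genotypes at 7 dpi, at 3.61 and 4.15 TPM for Hbb-bt.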

How the data were processed

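FAPs were sorted from tibialis anterior muscle and sequenced after poly(A) selection with a stranded kit. The authors mapped reads to mm10 with STAR and deposited TPM per library, which they derived from fragment counts normalised by DESeq2. The counting tool, its strand setting and its annotation were not given in the sources used here. Deposited TPM summed to 1000000 per library. Of 106 symbols listed repeatedly, the first row was kept and 109 further rows were left out. Whole fragments were recovered from TPM with exon lengths of GENCODE M21, and 98.7% to 98.9% of low values came out whole within 0.02. They served the filter (10 fragments in 2 libraries and 15 in all), the depths and the limma-voom alternative. Because only TPM were deposited, limma 3.58.1 (R 4.3.3) was run on log2(TPM + 1), with a trend and after a 30% trimmed-mean scaling, with p-values adjusted over all genes tested. Scripts were tested on simulated data. At 7 dpi each library pooled mice. At 3 dpi p-values rest on 2 mice per genotype.

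All members are accounted for by the rule for named genes, along with the 3 companions of highest mean TPM in each list, companions that were called, and reference FAP and sort genes. A single companion that the rule would name is not reported here. Members and lists were chosen with earlier results of these data known. Same-numbered libraries came from different mice and were not treated as pairs. Alternatives were another pseudocount, scaling, filter, threshold, estimator and test, a replicate block, and each library left out. Protein sequences were not used here. Coordinates are of mm10 as annotated in GENCODE M21.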

Additional observations from a re-analysis of the deposited data

Results flagged for a closer look

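For 4 members the libraries of the genotypes did not overlap at either day and the direction differed between days. That holds for 4 of 24 members and for 5.9% of 15043 genes tested at both days. Cd68 was at -0.61 (log2, Osr1cKO against control) at 3 dpi and 0.19 at 7 dpi, Kdr at -1.93 and 0.25, Tie1 at -0.23 and 0.27, and Vwf at -0.17 and 0.43. Kdr also went opposite ways by day, at -1.77 in control and 0.40 in Osr1cKO, with no overlap between days in either genotype, as 1.91% of 17371 genes tested did. The interaction of genotype and day tested these differences, and limma gave adjusted p-values of 0.729 for Cd68, 0.736 for Kdr, 0.723 for Tie1 and 0.756 for Vwf, so none passed. The Kdr values include the control library of 3 dpi with 16.8 TPM.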

How the results depend on the processing

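Several counts of called members moved with the processing. Counts by day here include the 11 members that passed the filter only through the 7 dpi libraries. At 3 dpi the count of members called between genotypes, 0, became 2 with a pseudocount of 0.1 (Kdr and Tie1), 1 with limma-voom (Tie1) and 2 with all 8 libraries in the fit, and 0 to 4 when a library was left out. At 7 dpi the count of 0 became 9 at an unadjusted p under 0.05, and 0 to 4 when a library was left out. By day in control, 22 became 12 without a filter on low values, which raised the number of genes tested, and 14 to 22 when a library was left out. By day in Osr1cKO, 24 became 14 to 28 when a library was left out. The interaction count of 0 became 6 at an unadjusted p under 0.05, and 0 to 1 when a library was left out. The cause of these changes was not tested.

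With the replicate number as a block, 1 member (Kdr) was called at 3 dpi. Of the 24, 14 and 18 were called by day in control and Osr1cKO, with C1qc no longer called in control. Deviations of same-numbered libraries correlated across genes by -0.09 between genotypes at 3 dpi and by 0.07 at 7 dpi, and the numbers do not pair the samples. The block changed no call at 7 dpi and none of the interaction.

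Depth limits the muscle stem cell genes at 3 dpi, Sox10, Cd3e and Ptprc, where counts of 0 to 12 fragments per library carry the value. With 2 libraries per group, no spread can be estimated well for a single gene. Sex-linked RNA, mitochondrial share, pooling and possibly the sequencer differ between days, and their part was not tested.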
